A study of Homo sapiens with 6 samples.

Results

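ITGAX, CSF2RA, FCGRT, SH2D2A and TIE1 are 5 human genes best known from blood cells, immune cells and vessel lining, and all were read in UC3DDP, a drug-resistant bladder carcinoma line. They were chosen by their read counts as leukocyte-typical genes with few or no reads in the parental line UC3 and reads in all 3 UC3DDP libraries, so the difference between the lines is given for them as a description without a test. They are 5 of the 18936 genes of the count table, and all 5 were among the 15120 genes that passed the filter on low counts. The rule sets no numeric limit. By the same counts, 56 genes of the table had no more than 70 counts over the 3 UC3 libraries and at least 142 in every UC3DDP library, the limits that hold all 5 members.

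RNA sequencing covered 3 libraries of the human bladder carcinoma cell line UC3 and 3 of its subline UC3DDP. Per the study's methods, the resistant subline (UC3-R there) came from UC3 cells taken through repeated rounds of gemcitabine plus cisplatin at rising doses with drug-free recovery between rounds, and UC3 is the untreated parent. The methods do not say that the subline is a single clone, nor do the labels say that the libraries of a line came from separate cultures, so p-values measure the spread between these libraries only. Parts of the labels speak of the line T24, of retinas and of a mouse genome build, whereas the sample titles, the human gene identifiers and the study's methods give UC3 and GRCh38, which were followed here.

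The integrin alpha X subunit (CD11c), encoded by ITGAX, pairs with the beta 2 subunit ITGB2 on dendritic cells and macrophages and binds complement fragments and fibrinogen. CSF2RA encodes the ligand-binding alpha chain of the receptor for the growth factor GM-CSF, which signals through the beta chain CSF2RB and the kinase JAK2 in myeloid cells. FCGRT encodes the heavy chain of the neonatal Fc receptor, which joins beta 2 microglobulin (B2M) and returns IgG and albumin from endosomes to the cell surface. It is found in epithelium and endothelium as well as in myeloid cells. SH2D2A encodes the T cell specific adapter protein TSAd, which binds the kinase LCK in T cells and the receptor KDR in endothelium. TIE1 is a receptor tyrosine kinase of endothelium and early blood cells that works beside TEK (TIE2), the receptor for the angiopoietins. The name blood-cell genes therefore fits ITGAX, CSF2RA and SH2D2A better than FCGRT and TIE1.

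Library totals were 19467228 to 20803970 counts in UC3 and 16757610 to 17254683 in UC3DDP. Every pair of replicates differed beyond counting noise, since chi-square over its degrees of freedom was 1.45 to 1.82 between UC3 libraries and 3.47 to 22.1 between UC3DDP libraries. Both of the larger UC3DDP values involved replicate 1, in which 41 genes had at least 10 counts while every other library had 0, a pattern that no other library showed for any gene. Fold changes also followed transcript GC content. Their median was -1.44 (log2) in the 10% of tested genes of lowest GC content and 0.77 in the 10% of highest, and -0.01 and 0 after an adjustment for GC content and length, so results are given with that adjustment and without UC3DDP replicate 1 where either changes them.

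The GM-CSF receptor chain CSF2RA (ENSG00000198223, chromosome X, 1268800 to 1310381, plus strand, GRCh38) had 1, 0 and 0 counts in UC3 replicates 1, 2 and 3, and 284, 238 and 259 counts in the UC3DDP libraries. A single read thus stood against 781 in the resistant line, and the groups did not overlap. In CPM, the read count scaled to library size, the level was 0.0165 ± 0.0286 in UC3 and 15.3 ± 1.51 in UC3DDP (mean ± SD, n = 3 each). The ratio of summed counts, scaled to library size, was 925 with a 95% exact interval of 166 to 36588 that covers counting error only. Without UC3 replicate 1, which held the only UC3 read, CSF2RA was at least 205-fold higher, taking 3 counts for the whole group as the floor, and without UC3 replicate 3 the ratio was 606. The gene lies in the pseudoautosomal region, where X and Y carry the same sequence, and the sources used here do not say how the authors' counting treated the Y copy.

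The Fc receptor heavy chain FCGRT (ENSG00000104870, chromosome 19, 49506816 to 49526428, plus strand) had 2, 0 and 1 counts in UC3 and 553, 479 and 533 counts in UC3DDP. Its level went from 0.049 ± 0.0496 to 30.7 ± 2.58 CPM (n = 3 each), a ratio of summed counts of 618 (95% exact interval 211 to 3000), or 1234 without UC3 replicate 1. The adapter gene SH2D2A (ENSG00000027869, chromosome 1, 156806243 to 156816848, minus strand) was as scarce in the parental line. It had 0, 1 and 1 counts in UC3 and 272, 242 and 264 counts in UC3DDP, or 0.0332 ± 0.0288 and 15.3 ± 1.08 CPM. The ratio was 461 (95% exact interval 127 to 3812), or 307 without UC3 replicate 1. No UC3 library held more than 2 reads of either gene, and no UC3DDP library fewer than 242.

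The other pair was not at the floor in UC3. The integrin subunit ITGAX (ENSG00000140678, chromosome 16, 31355134 to 31382999, plus strand) had 6, 1 and 5 counts in UC3 and 142, 153 and 144 in UC3DDP. Its level went from 0.196 ± 0.129 CPM to 8.61 ± 0.247 CPM (n = 3 each), with a ratio of 43.3 (95% exact interval 24.6 to 84.5). The endothelial receptor kinase TIE1 (ENSG00000066056, chromosome 1, 43300982 to 43323108, plus strand) was read in every UC3 library, at 25, 18 and 27 counts, against 863, 763 and 771 counts in UC3DDP. The means were 1.15 ± 0.197 and 47.1 ± 3.63 CPM, and the ratio was 40.6 (95% exact interval 32 to 52.2). ITGAX and TIE1 thus had nearly the same ratio although TIE1 stood at the higher level in both lines.

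**Figure D1:**
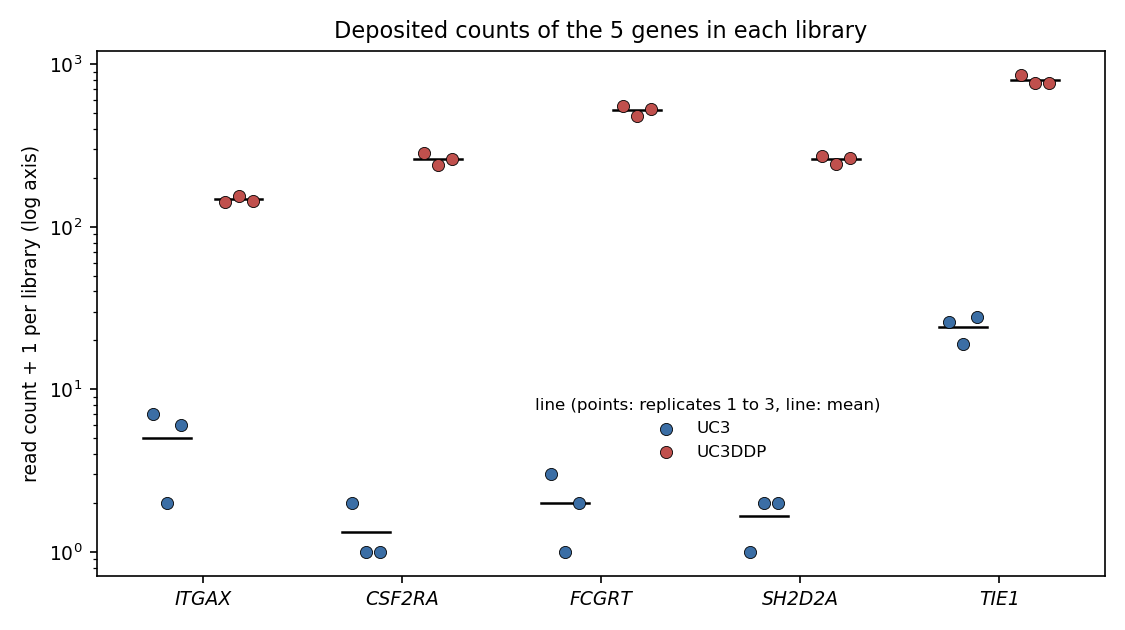
Read counts plus 1 (log axis) of the 5 genes in each of the 3 UC3 libraries (blue) and the 3 UC3DDP libraries (red), with a bar at the mean. The UC3 points of CSF2RA, FCGRT and SH2D2A stand for 0 to 2 counts, those of TIE1 for 18 to 27, and no UC3 point reaches a UC3DDP point of the same gene.

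The fitted log2 fold changes, which for genes with so few UC3 reads depend on the prior count of the fit, were 9.36 for CSF2RA (SE 0.32), 9.09 for FCGRT (0.25), 8.58 for SH2D2A (0.27), 5.39 for ITGAX (0.25) and 5.34 for TIE1 (0.13). Ordered from the highest among all tested genes they ranked 3, 7, 18, 116 and 122. SE here and below is the absolute log2 fold change divided by the square root of the F statistic of the edgeR test. For CSF2RA, FCGRT and SH2D2A it understates the uncertainty from so few UC3 reads. The exact interval of the CSF2RA ratio, 166 to 36588, is far wider. Of all 15120 genes tested, 17.6% were called higher and 23.1% lower by edgeR (adjusted p below 0.05 with a log2 fold change beyond 1 in either direction). All 5 members are among the higher genes, as their choice by these counts requires, and nothing is read from it. With the adjustment for GC content and length, under which 14.3% of genes were called higher and 13.1% lower, the log2 fold changes were 9.15, 8.33, 7.87, 4.84 and 4.62 in the same order. The transcripts of the members are richer in GC than most. SH2D2A, TIE1 and FCGRT had 60.8%, 60.8% and 62.6% GC, above 89.6%, 89.4% and 93.4% of tested genes, ITGAX had 56.3% and CSF2RA 48.9%.

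Per exon length, a scale on which genes can be compared, FCGRT was the most abundant in UC3DDP at 20.3 ± 1.71 RPKM (CPM per kilobase of exon, range 18.4 to 21.7, n = 3). TIE1 followed at 12.1 ± 0.934 RPKM (11.4 to 13.1). The adapter gene SH2D2A, at 9.29 ± 0.656 RPKM (8.55 to 9.81), and the receptor gene CSF2RA, at 8.45 ± 0.83 RPKM (7.62 to 9.28), overlapped in their libraries and were not separated beyond their spread. ITGAX was lowest at 1.85 ± 0.0529 RPKM (1.81 to 1.91). Apart from SH2D2A and CSF2RA, neighbours in this order had libraries that did not overlap. Within UC3DDP the coefficient of variation of the CPM was 2.86% for ITGAX and 7.06% to 9.83% for the other 4 genes.

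The members were read at like levels in the 3 UC3DDP libraries, as their choice by reads in all 3 in part requires. The CPM in replicate 1 was 0.967 times the mean of replicates 2 and 3 for ITGAX, 1.09 for SH2D2A, 1.1 for FCGRT, 1.14 for TIE1 and 1.16 for CSF2RA. Many other genes were as even, such as the endothelial gene ENG (1.08), the lymphatic receptor gene FLT4 (0.993) and the factor gene RUNX1 (0.949), so this is not particular to the members. Genes picked after their values were seen show what sets replicate 1 apart. FLT1, a VEGF receptor, had 31, 1 and 1 counts in UC3DDP replicates 1, 2 and 3, and VCAM1, an endothelial adhesion molecule, had 26, 0 and 0. The platelet and endothelial adhesion molecule PECAM1 had 47, 5 and 5 counts. The epithelial cadherin CDH1 was among the 41 genes of replicate 1 alone, with 159, 0 and 0 counts. Without replicate 1, the fitted log2 fold changes of the members were 5.41 for ITGAX, 9.30 for CSF2RA, 9.04 for FCGRT, 8.55 for SH2D2A and 5.27 for TIE1.

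**Figure D2:**
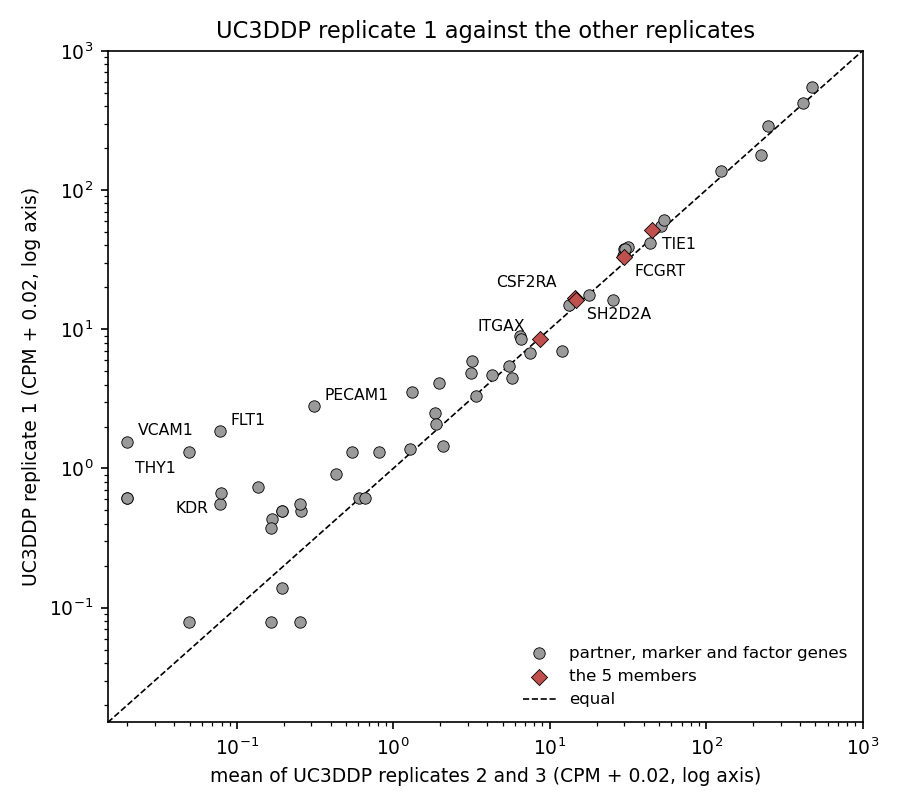
CPM plus 0.02 in UC3DDP replicate 1 (vertical) against the mean of replicates 2 and 3 (horizontal), both on log axes, for the 5 members (red) and for the partner, marker and factor genes described here (grey), with a dashed line where both are equal. The members lie next to the line, at 0.967 to 1.16 times the mean, as do many of the other genes, whereas FLT1, THY1, VCAM1 and PECAM1 lie above it.

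Promoters are shown for 2 of the 5 genes, those whose windows hold GAGGAA, the letters of the purine-rich box bound by PU.1, a factor of the ETS family that drives many myeloid genes. The RefSeq promoter table (GRCh38.p14) held CSF2RA, FCGRT and TIE1, and the 250 bases before each start site were searched on both strands. Bases are given 5′ to 3′ on the strand of the gene with matches in capitals (TTCCTC is GAGGAA on the other strand), for chrX:1268564-1268813 (plus) and chr1:43300732-43300981 (plus).
CSF2RA: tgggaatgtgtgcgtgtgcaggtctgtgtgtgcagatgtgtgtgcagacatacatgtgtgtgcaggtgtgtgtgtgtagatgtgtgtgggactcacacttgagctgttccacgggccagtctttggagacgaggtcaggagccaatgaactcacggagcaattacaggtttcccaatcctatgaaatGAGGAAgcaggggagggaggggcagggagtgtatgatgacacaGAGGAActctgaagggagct
TIE1: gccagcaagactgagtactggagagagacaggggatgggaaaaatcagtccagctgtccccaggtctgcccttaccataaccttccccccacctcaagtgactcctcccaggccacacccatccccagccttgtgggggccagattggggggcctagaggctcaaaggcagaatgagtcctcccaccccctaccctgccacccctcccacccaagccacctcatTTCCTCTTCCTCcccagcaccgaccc
The CSF2RA window held 2 matches, whose first bases lie at -63 and -20 when the base before the start site is -1. The TIE1 window held 2 matches next to each other, at -26 and -20. Of 27195 promoter windows of this length, 23.4% held at least 1 match and 3.49% at least 2. Matches to CCAAT, the letters of the CCAAT box, numbered 2 in CSF2RA and 1 in TIE1, while 33% of all windows held at least 1 and none of the GAGGAA matches overlapped one. The FCGRT start site of the table lies 5845 bases inside the gene as counted, and its window held no match to either. GGGCGG, the GC box, and TATAAA, the TATA box, were not among the letters of the 3 windows, against 42.4% and 11.1% of all windows. CpG pairs were few, with 4 in CSF2RA, 5 in FCGRT and 1 in TIE1, and a median of 11 over all windows. As few or fewer were held by 34.9%, 38.6% and 15.3% of windows. A match to these letters is a description of the window and not a binding site.

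To see whether the genes that work with the members were read too, 47 partner genes (ligands, co-receptors, paralogous receptors and signalling genes) were taken from 5 lists. Of these, 29 had a row in the table and 17 passed the filter, of which 5 rose and 4 fell in UC3DDP. Against the background of 17.6% higher and 23.1% lower, the median log2 fold change of the 17 was 0.67 and that of all tested genes 0.02. Of the 5 that rose, C3 and FERMT3 passed the filter through UC3DDP alone and could not have been called lower. Of the other 15 tested partner genes 3 rose, with a median of 0.48. With DESeq2, which was run without that filter, 10 of the 29 partner genes with a row were called higher, and 3034 genes in all. With edgeR without the filter 11 were, and 3296 genes in all. In both, genes of low counts that were not tested in the first fit could be called. With the GC and length adjustment 4 rose and 1 fell. Without UC3DDP replicate 1, where 16.7% of the genes tested were called higher and 21.8% lower, 4 rose and 4 fell.

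Among the partners of ITGAX, its obligate beta chain ITGB2 had 227, 194 and 250 counts in UC3 and 566, 505 and 502 in UC3DDP. The beta chain was thus well read in the parental line, where ITGAX was not, and its libraries did not overlap between the lines. ITGB2 rose by 1.48 on the log2 scale (SE 0.10, edgeR adjusted p = 1.2e-06), but stood at 0.72, under the fold limit, with the GC and length adjustment. ITGAM, the alpha chain of the sister integrin CD11b and the next tested gene upstream of ITGAX, stayed at 12, 10 and 9 counts in UC3 and 10, 13 and 9 in UC3DDP (log2 fold change 0.29, SE 0.28, adjusted p = 0.457). FERMT3, the blood-cell kindlin that activates beta 2 integrins, rose from 5, 6 and 3 counts to 23, 19 and 24 (2.45, SE 0.31, adjusted p = 6.1e-05, and 1.66 with the adjustment). The complement component C3, whose fragment iC3b is a ligand, had 14, 10 and 16 counts in UC3 and 59, 19 and 25 in UC3DDP. Its rise of 1.60 (adjusted p = 0.00967) was 0.96 and no longer called without UC3DDP replicate 1, the library with 59 counts. The surface ligand THY1 went the other way, from 101, 121 and 132 counts to 22, 0 and 1, and fell by 3.68 on the log2 scale (adjusted p = 3.0e-04). All but 1 of its UC3DDP reads came from replicate 1, without which it stood at -7.35. Talin (TLN1), which links integrins to actin, was not called (0.41). The adhesion ligands ICAM1 and VCAM1 did not pass the filter, and the alpha chains ITGAL and ITGAD and the fibrinogen chain FGB had no row among the 18936 genes analysed here, in which the lowest total over the 6 libraries was 10 counts.

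For the GM-CSF receptor, the signalling beta chain CSF2RB had no row among the genes analysed here, and neither did IL3, IL5, IL5RA and STAT5A. The ligand gene CSF2 had 3, 2 and 4 counts in UC3 and 10, 12 and 8 in UC3DDP. IL3RA, the alpha chain of the interleukin 3 receptor that uses the same beta chain, had 1, 3 and 1 counts and then 15, 4 and 10. Both were below the filter and at low levels beside the 238 to 284 counts of CSF2RA. JAK2, the kinase bound to the beta chain, had 667, 517 and 694 counts in UC3 and 91, 87 and 100 in UC3DDP, without overlap. It fell by 2.51 on the log2 scale (SE 0.12, adjusted p = 3.1e-07), the only call among the 4 tested genes of this list, and stood at -0.97, just inside the fold limit, with the GC and length adjustment. STAT5B, the transcription factor downstream, had 1397, 1321 and 1368 counts against 2331, 2126 and 2147, a log2 fold change of 0.94 that did not reach the fold limit. Its targets PIM1 (0.48) and SOCS2 (0.81) were not called, and CISH, with 2 to 9 counts in every library, was not tested.

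The light chain of the neonatal Fc receptor, B2M, was abundant in both lines, at 5403, 5158 and 5214 counts in UC3 and 7077, 7046 and 7103 in UC3DDP, or 261 ± 9.76 and 417 ± 6.16 CPM (n = 3 each). The partner that FCGRT needs was thus present while FCGRT itself was not read in UC3 beyond 3 reads. The log2 fold change of B2M was 0.67 and under the fold limit, and it was 1.73 and called higher once GC content and length were adjusted for (adjusted p = 3.3e-08). TRIM21, a cytosolic Fc receptor, was not called (0.27). The IgG receptor gene FCGR2A and the shared signalling chain FCER1G had 1 to 8 counts in every library and were not tested. FCGR1A, FCGR2B and FCGR3A had no row among the genes analysed here.

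Of the T cell kinases and adapters around SH2D2A, LCK, ZAP70, LAT and LCP2 had no row among the genes analysed here, and TXK had 3 to 9 counts in every library. The kinase SRC, which SH2D2A can bind, had 37, 35 and 42 counts in UC3 and 636, 497 and 528 in UC3DDP. It rose by 4.11 on the log2 scale (SE 0.14, adjusted p = 6.6e-08, and 3.46 with the GC and length adjustment), the largest rise among the 17 tested partner genes. The adapter GRB2 had 2043, 1989 and 2239 counts against 4855, 4156 and 4373 and rose by 1.34 (adjusted p = 9.5e-07), but stood at 0.89 with the adjustment. MAP3K2, a kinase upstream of ERK5 that binds SH2D2A, fell by 1.76 (adjusted p = 5.4e-06) and stood at -0.05 with the adjustment. KDR, the VEGF receptor that SH2D2A binds in endothelium, had 0 counts in UC3 and 11, 0 and 2 in UC3DDP.

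TEK, the partner receptor of TIE1, and the ligand ANGPT4 had no row among the genes analysed here. The TEK ligand ANGPT1 was read in UC3 at 657, 703 and 716 counts and in UC3DDP at 117, 211 and 199, a fall of 1.73 on the log2 scale (SE 0.17, adjusted p = 1.3e-05) that was -0.32 with the GC and length adjustment. The antagonist ligand ANGPT2 had 10 counts, all in UC3DDP replicate 1, and the phosphatase PTPRB, which acts on TEK, had 0 counts in UC3 and 22, 8 and 10 in UC3DDP. The lymphatic receptor FLT4 had 30, 44 and 45 counts and then 56, 55 and 59, and was not called (0.76).

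**Figure D3:**
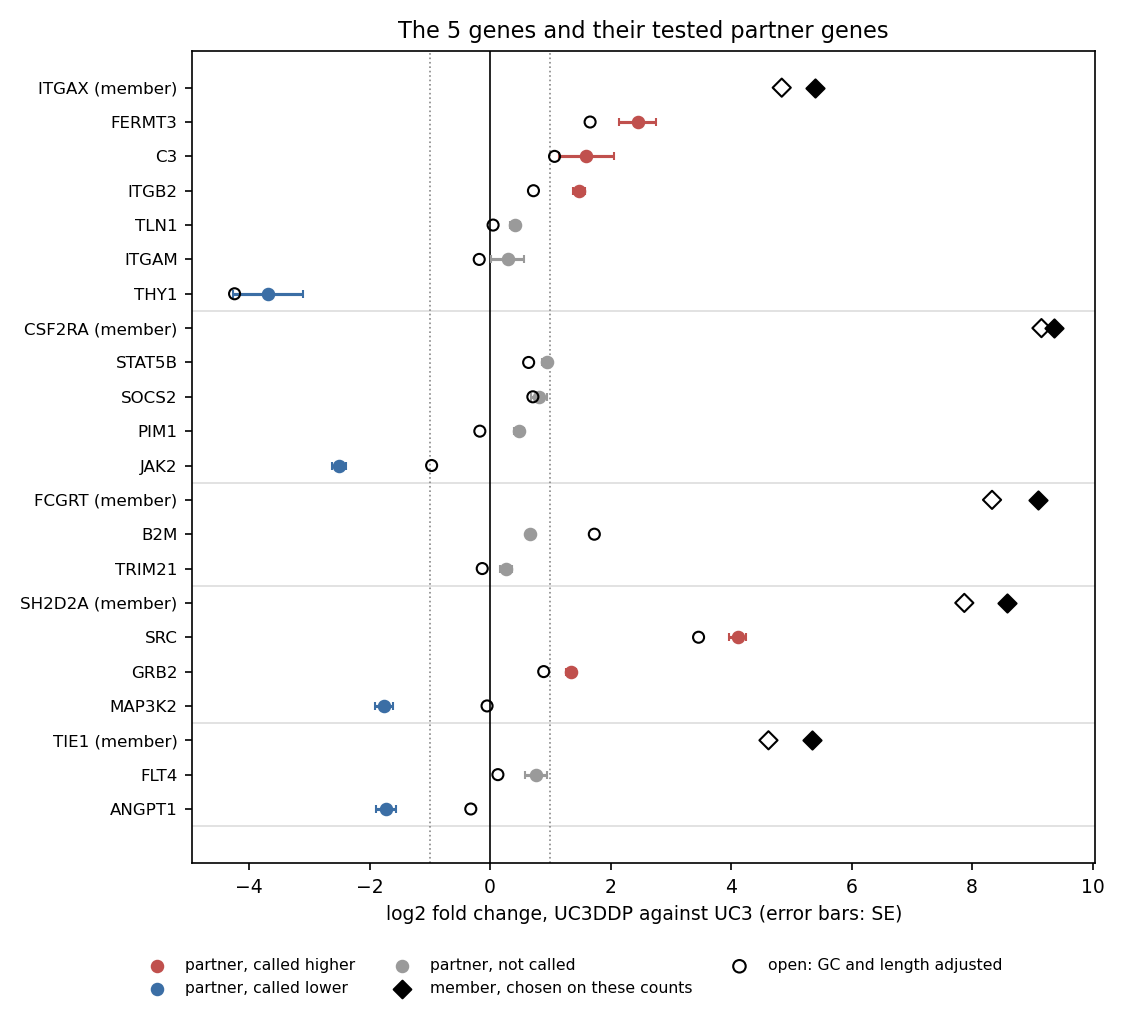
Log2 fold change of UC3DDP against UC3 for each member (diamonds, chosen on these counts) and for its tested partner genes (circles with SE, red higher, blue lower, grey not called), with the value after GC and length adjustment as an open symbol and dotted lines at the fold limit of 1. Of the 17 partner genes 5 are higher and 4 lower, from -3.68 for THY1 to 4.11 for SRC.

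Markers of whole cell types were read beside the members, since in bulk RNA a change in the number of cells of a type and a change in RNA per cell cannot be told apart. Of 47 blood-cell markers, 9 had a row and 5 were tested, and those 5 were called higher (background 17.6%), or 4 with the GC and length adjustment (14.3%). Of the 5, 4 (ARHGDIB, LAPTM5, CD22 and CD8A) passed the filter on low counts through their UC3DDP libraries alone and could not have been called lower, so the direction of the count was largely set by the filter. Their summed level over the 9 genes was 3.07 to 3.36 CPM in the UC3 libraries and 57.9, 46 and 46.6 CPM in UC3DDP replicates 1, 2 and 3. ARHGDIB, an inhibitor of small GTPases common in blood cells, made up most of it and rose from 9, 9 and 13 counts to 588, 509 and 508 (5.92, SE 0.15, adjusted p = 1.6e-08). The lysosomal protein gene LAPTM5 rose from 3, 2 and 2 counts to 100, 63 and 46 (5.07, adjusted p = 9.4e-06). The actin-binding gene CORO1A rose by 1.13, or 0.33 with the GC and length adjustment and 0.92 without UC3 replicate 3. CD22, a B cell lectin, rose from 2, 1 and 5 counts to 150, 106 and 115 (5.71, adjusted p = 7.1e-07), and the T cell co-receptor gene CD8A from 1, 1 and 2 to 42, 27 and 35 (4.81, adjusted p = 4.0e-06). Defining genes of the same cells had few counts or no row. The lowest total of a row was 10 counts over the 6 libraries, so a gene without a row can still have had reads. The B cell gene CD79A had 0, 0 and 3 counts in UC3 and 7, 2 and 3 in UC3DDP. PTPRC, which encodes the leukocyte antigen CD45, had no row among the genes analysed here, nor had CD53, CD3D, CD3E or MS4A1. Of 14 myeloid markers 2 had a row, CD14 with 2 counts in each UC3 library and 8, 3 and 3 in UC3DDP, and ELANE with 0 to 7 counts in every library. The part of other cells in the members' counts was not tested.

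Of 12 endothelial markers, 10 had a row, 5 were tested and 5 rose (background 17.6%), or 3 with the GC and length adjustment (14.3%) and 4 without UC3DDP replicate 1 (16.7%). VWF, MMRN2 and ROBO4 passed the filter through UC3DDP alone and could not have been called lower. They are the 3 that kept their call with the adjustment. The summed level of the 10 genes was 37.4 to 39.6 CPM in UC3 and 106, 87.7 and 89.3 CPM in UC3DDP. VWF, a clotting factor carrier of endothelium, rose from 4, 1 and 1 counts to 69, 34 and 32 (4.65, adjusted p = 5.4e-05). MMRN2 and ROBO4, a matrix and a guidance receptor gene of vessels, rose by 2.02 and 1.78 at 0.963 ± 0.297 and 1.84 ± 0.364 CPM in UC3DDP. EGFL7 rose by 1.63, or 0.78 with the adjustment. ENG rose by 1.02, or 0.23 with the adjustment and 0.99 without UC3DDP replicate 1. The defining junction genes were near 0, with PECAM1 at 4, 1 and 3 counts in UC3 and 47, 5 and 5 in UC3DDP, and CDH5 at 2, 0 and 0 and then 9, 2 and 0. TIE1, at 763 to 863 counts, was far above these in every UC3DDP library. Bladder epithelium was only partly marked in either line. The keratins KRT8 and KRT18 were at 54.2 ± 2.48 and 152 ± 4.36 CPM in UC3, whereas UPK2 had 7 to 10 counts in UC3, EPCAM 1 to 2, and KRT5, UPK1B and UPK3A no row. Of 5 urothelial and epithelial markers tested, 2 rose (background 17.6%), or 1 with the adjustment (14.3%). KRT7 rose by 1.47 (0.68 with the adjustment). TP63 rose from 2, 0 and 1 counts to 34, 40 and 36 (5.26, adjusted p = 2.9e-06), but passed the filter through UC3DDP alone and could not have been called lower.

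Among 18 transcription factors of blood and vessel cells, 9 had a row, 8 were tested and 4 rose (background 17.6%), or 3 with the adjustment (14.3%). Of the 4, LMO2 and FLI1 passed the filter through UC3DDP alone. Of the other 6 tested factors 2 rose without the adjustment. SPI1, which encodes PU.1, had no row among the genes analysed here, and neither had GATA1, TAL1, ERG, IKZF1 or IRF8. The cofactor gene LMO2 rose from 3, 0 and 2 counts to 81, 61 and 46 (5.37, adjusted p = 6.3e-06). FLI1, a factor of the ETS family, rose from 20, 15 and 11 counts to 75, 106 and 90 (2.79, adjusted p = 4.0e-06). GATA2, a factor of blood stem cells and endothelium, rose from 244, 245 and 256 counts to 1022, 893 and 941 (2.18, adjusted p = 1.2e-07). CEBPA, a myeloid factor, rose by 1.16, or 0.34 with the GC and length adjustment. RUNX1 (0.42), CEBPB (0.77), ETS1 (-0.81) and SOX18 (0.55) were not called. Over all blood and endothelial markers and factors together, 14 of 18 tested genes rose and 0 fell, against 17.6% and 23.1% of all tested genes. The counts were 10 and 0 with the adjustment (background 14.3% and 13.1%) and 13 and 0 without UC3DDP replicate 1 (16.7% and 21.8%). Here too, 9 of the 14 passed the filter through UC3DDP alone and could not have been called lower. Of the other 9 tested genes 5 rose, with a median log2 fold change of 1.02, against 0.02 over all tested genes. With the adjustment GATA2 alone of the 9 was called higher, at 1.45, against a background of 14.3%. CORO1A, EGFL7, ENG and CEBPA lost their call, at 0.33, 0.78, 0.23 and 0.34. Of the 18, ETS1 alone was lower at an adjusted p under 0.05 in edgeR (7.0e-05), and only the fold limit kept it from a call. DESeq2 and limma voom also called 0 lower.

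Genes near the members were compared to see whether whole stretches of a chromosome were higher. Within 250 kb of the 5 genes lay 81 other genes of the table, of which 63 were tested. Of these 17 rose and 3 fell, or 27% and 4.76% against 17.6% and 23.1% of all tested genes, with a median log2 fold change of 0.64. With the GC and length adjustment 8 rose and 5 fell, or 12.7% and 7.94% against 14.3% and 13.1%, so the share of higher neighbours was then no larger than that of all genes. Of the 63, 3 passed the filter through UC3DDP alone and could not have been called lower, and 2 of these rose without the adjustment. Of the other 60, 15 rose without it, with a median of 0.63.

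Around CSF2RA, 3 of 6 tested genes rose and 1 fell (background 17.6% and 23.1%). With the GC and length adjustment 2 rose and 2 fell (14.3% and 13.1%). P2RY8, a receptor gene of lymphoid cells that starts 268 kb away, rose from 15, 14 and 14 counts to 452, 410 and 369 (5.07, SE 0.15, adjusted p = 2.8e-08). CRLF2, the receptor for the cytokine TSLP and the nearest tested gene upstream, rose from 11, 11 and 14 counts to 59, 59 and 56 (2.50, SE 0.17, adjusted p = 1.7e-06). Both were also called with the adjustment, at 4.46 and 1.94. SLC25A6, an ADP/ATP carrier and the nearest tested gene downstream, was at 270 ± 4.12 CPM in UC3 and 405 ± 32.7 in UC3DDP and was not called (0.58). ASMTL rose by 1.25 (0.45 with the adjustment), and LINC00106 fell by 1.10, or stood at -0.87 without UC3DDP replicate 1. The gene pairs of this region thus differed among themselves, from -1.10 to 5.07.

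SH2D2A had the most called neighbours, 9 higher and 1 lower of 17 tested (background 17.6% and 23.1%). With the GC and length adjustment 5 were higher and 1 lower (14.3% and 13.1%). NES, an intermediate filament gene, rose from 27, 24 and 25 counts to 589, 515 and 569 (4.70, SE 0.12, adjusted p = 1.6e-08). CRABP2, a retinoic acid carrier, rose from 89, 93 and 92 counts to 1170, 1022 and 1038 (3.80, SE 0.10, adjusted p = 1.7e-08). The brain proteoglycan gene BCAN and its antisense gene BCAN-AS1 rose by 2.37 and 2.60, and all 4 were called with the adjustment as well. PEAR1 (1.57), ENSG00000272405 (1.34), ENSG00000229953 (1.16) and NAXE (1.10) were called without the adjustment and not with it, and GPATCH4 fell by 1.07, or stood at -0.92 without UC3DDP replicate 1. Leaving out UC3 replicate 2 put ENSG00000229953 at 1.00, where it was no longer called. PRCC, 5428 bases downstream of SH2D2A, was not called (0.64). The sources used here do not say whether reads were counted by strand, so reads of overlapping genes cannot be told apart.

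FCGRT had few called neighbours, 2 higher of 19 tested (background 17.6%). RCN3, 1575 bases downstream, had 7, 16 and 15 counts and then 21, 16 and 21 (0.85, adjusted p = 0.0314), under the fold limit except without UC3 replicate 2, when it was 1.06. Of the 19 tested genes there, PIH1D1 and CPT1C rose, by 1.11 and 1.64, neither with the GC and length adjustment, and PIH1D1 not without UC3DDP replicate 1. Around ITGAX, 3 of 13 tested genes rose (background 17.6%), or 1 with the adjustment (14.3%). TGFB1I1 rose by 1.76 (1.02 with the adjustment), SLC5A2 by 1.44 (0.64) and RUSF1 by 1.10 (0.34, and 1.00 and not called without UC3DDP replicate 1). SLC5A2 passed the filter through UC3DDP alone and could not have been called lower. The nearest tested genes, ITGAM and ENSG00000260267 (0.17), were not called. Around TIE1, 0 of 8 tested genes were called higher by edgeR, DESeq2 or limma voom. Of the 8, 5 were higher at an adjusted p under 0.05 in edgeR, so only the fold limit kept them from a call. The nearest gene, EBNA1BP2, 30046 bases upstream, was at 167 CPM in both lines (0.00, SE 0.07). ENSG00000234694, downstream, fell by 1.09, or stood at -0.91 without UC3 replicate 1.

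**Figure D4:**
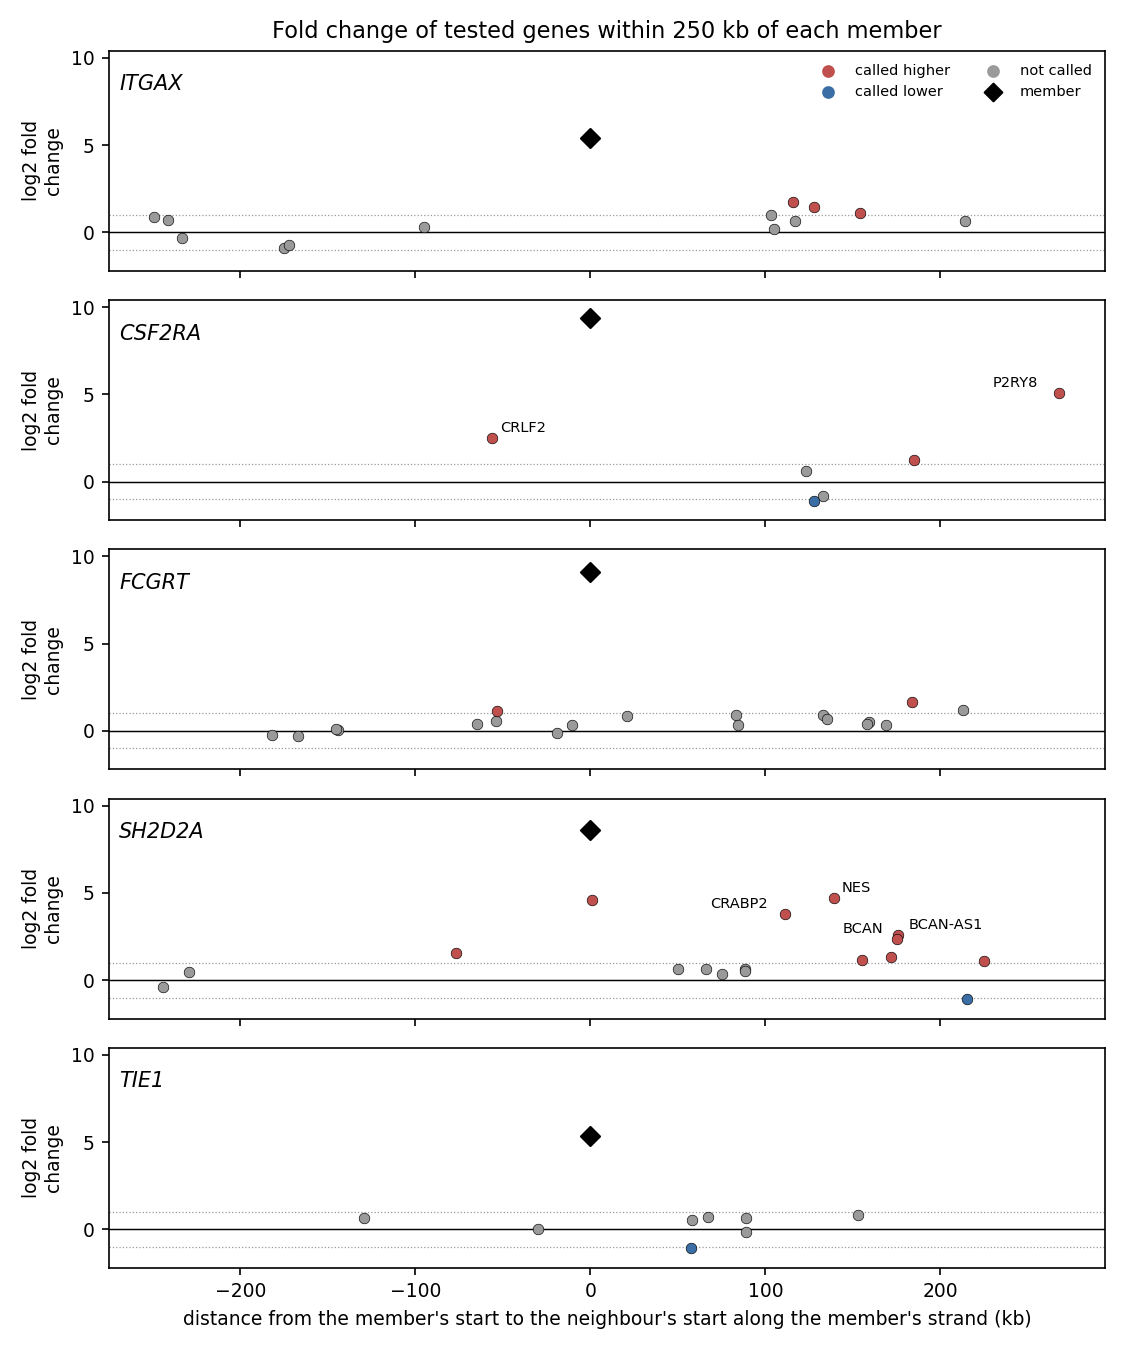
Log2 fold change of the tested genes within 250 kb of each member (circles, red higher, blue lower, grey not called) by the distance in kb from the start of the member (black diamond at 0) to their own start, along the strand of the member, with dotted lines at the fold limit of 1. Around TIE1 the neighbours range from -1.09 to 0.85 (median 0.57), with 0 of 8 higher and 1 lower. Around FCGRT they range from -0.31 to 1.64 (median 0.40), with 2 of 19 higher. P2RY8 near CSF2RA and NES near SH2D2A reach 5.07 and 4.70.

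The genes most like each member were sought by the root mean square difference of log2 CPM over the 6 libraries among the 15119 other tested genes. Since both lines enter the measure, it mostly finds genes with as few UC3 reads and a like UC3DDP level, and it is a description. For CSF2RA the nearest gene was another member, SH2D2A, at 0.39 log2 units, followed by ACSS3 and SERPING1 at 0.55 each. For SH2D2A they were ACSS3 (0.27), SPP1 (0.38) and SERPING1 (0.38). ACSS3 encodes a mitochondrial acyl-CoA synthetase, SERPING1 the inhibitor of complement C1, and SPP1 osteopontin. These 3 genes, the members CSF2RA, FCGRT and SH2D2A, and the zinc finger gene ZNF667 were the 7 genes of the table with at most 3 counts over UC3 and at least 142 in every UC3DDP library. ZNF667 was also nearest to FCGRT (0.52), before the neuropeptide-processing enzyme CPE and the class II chain HLA-DQB1 (0.71 each), whose reads can be shared with other HLA genes. The list for ITGAX was TMEM92 (0.24), LSR (0.26) and MPP4 (0.38), with 110 to 179 counts in UC3DDP. TIE1 was nearest to NES (0.40), F11R (0.46), which encodes the junctional adhesion molecule JAM-A, and the antisense gene NECTIN3-AS1 (0.50). Of these nearest genes only NES is a neighbour of a member on the chromosome, and it lies near SH2D2A, not near TIE1.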

How the data were processed

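RNA of 6 samples was sequenced, and libraries were grouped by the line in their titles. Per the study's methods, reads were cleaned with Fastp and aligned with HISAT2 to GRCh38, and the authors counted reads of each gene with featureCounts. They deposited whole-number counts that are not normalized, with the summed exon length of each gene. The same table holds the authors' log2 fold change, fold ratio, p-value and false discovery rate, which were not used. From the counts, CPM values were computed with TMM library sizes (factors 0.977 to 1.02). Lines were compared in edgeR 4.0.16 (R 4.3.3) by its quasi-likelihood test over the 6 libraries, after filterByExpr (minimum count 10), with Benjamini-Hochberg adjustment over 15120 genes. Every adjusted p is from it. The model held the line as its only term. A gene was called if its adjusted p was below 0.05 and its log2 fold change beyond 1 in either direction. Alternatives were DESeq2 1.42.0, limma 3.58.1 (voom), DESeq2 size factors, no filter, the replicate number as a block, an offset from a loess trend (span 0.3) on GC content and length of GENCODE release 44 transcripts (the GC and length adjustment), and leaving out each library. The adjustment without UC3DDP replicate 1 was added after the data were seen. Exact intervals and floors include counting error alone, because PCR copies could not be told from separate molecules.

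The named genes were the 5 members, every tested partner gene and the partners ITGB2, CSF2RB, B2M, TEK and LCK, up to 4 called genes of each marker or factor list and PTPRC, SPI1, PECAM1 and CDH5, the nearest tested and every called neighbour within 250 kb, and the 3 genes most like each member. Other genes named with counts or fold changes were chosen after their values were seen. The members and the 13 lists were chosen with earlier results of these data known. The fits were tested on simulated data. Of the gene identifiers, 99.8% were found in GENCODE release 44. The values of some genes that the rule takes are not reported here.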

Additional observations from a re-analysis of the deposited data

How the results depend on the processing

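The labels do not say whether the replicate numbers of the titles pair the libraries. Deviations of same-numbered UC3 and UC3DDP libraries correlated at -0.0474, -0.0136 and -0.00889, and those of differently numbered libraries at -0.0282 to 0.042. These values cannot show whether the libraries were prepared in pairs. With the number as a block, 2660 genes were higher and 3514 lower, against 2666 and 3495 without it, and no call of a named gene changed.

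The members' log2 fold changes moved most with the few UC3 reads and with GC content. CSF2RA was 9.73 with DESeq2, 8.74 with limma voom and 8.89 to 11.12 when a library was left out. FCGRT was 8.33 with the GC and length adjustment, with or without the block, 8.36 with it and without UC3DDP replicate 1, and 8.57 to 9.91 when a library was left out. SH2D2A was 7.87, 7.87 and 7.90 under these adjusted fits, 8.21 with voom and 8.06 to 8.93 when a library was left out. TIE1 was 4.62, 4.62 and 4.61 under the adjusted fits. ITGAX stayed between 4.84 and 5.77 under the GC and length adjustment and the left-out libraries.

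Counts of calls moved most with the adjustment. Genes lower numbered 1984, 1982 with the block and 2000 without UC3DDP replicate 1. Partner genes lower numbered 1, 1 and 2, neighbour genes higher 8, 8 and 8, and neighbour genes lower 5, 5 and 7 under the same settings. Partner genes higher were 10 with DESeq2 (3034 genes in all), 11 without the filter (3296) and 3 with the adjustment without UC3DDP replicate 1 (2181). Of 56 named genes, 18 lost their call with the adjustment, 1 gained one (B2M) and 7 changed sign, none of them called in the first fit. Those 7 were, with the adjustment and, in brackets, also without UC3DDP replicate 1, ITGAM at -0.18 (-0.10), PIM1 at -0.17 (-0.11), PRCC at -0.05 (-0.02), SLC25A6 at -0.19 (-0.17), TRIM21 at -0.13 (-0.12), ENSG00000260267 at -0.57 (-0.60) and EBNA1BP2 at -0.26 (-0.21). The block moved none of these. EBNA1BP2, at 0.00 at first, was -0.01 with DESeq2 or its size factors and -0.03 to 0.02 when a library was left out. The cause of these moves was not tested. Depth limits the folds of CSF2RA, FCGRT and SH2D2A, which rest on 1 to 3 UC3 reads.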
